A study of Mus musculus with 2 samples.

Results

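Homeobox genes encode transcription factors that bind DNA through a shared fold, the homeodomain. The genes described here are those whose symbol on the array platform begins with Hoxa, Hoxb, Hoxc, Hoxd, Pax, Dlx, Lhx, Irx, Nkx, Meis, Pbx or Otx followed by a digit, together with the sine oculis homeobox genes (Six2 to Six6) and without Pax5, the B cell factor. They number 96 of 18193 genes and are read by 153 of the 34945 probe sets that carry exactly 1 gene symbol, out of 45101 on the array. They were chosen by symbol and are called homeobox genes here, and whether each encodes a homeodomain was not checked. Of the 96 genes, 85 code for proteins and 11 have names with an ending such as as, os or os1 that mark antisense or opposite-strand RNAs.

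Gene expression was measured on 2 one-colour arrays of mouse RNA, 1 from a co-culture of cells labelled lymphoma with endothelial cells, which form the inner lining of blood vessels, and 1 from cells labelled lymphoma grown in serum-containing medium. The labels give no lymphoma line, no source of the endothelial cells and no length of culture, and they do not say whether the cells were separated before RNA was taken. The medium of the co-culture is not labelled either, so medium and endothelial cells cannot be told apart. The comparison asks how gene expression in lymphoma cells differs after co-culture. With 1 array per culture there is no replicate, and no p-value is given. In RNA from whole cultures, fewer cells of a type and less RNA per cell cannot be told apart.

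The Hox genes lie in 4 clusters, a to d, and embryos switch them on in the order in which they lie along the chromosome, so that low paralogue numbers mark the front of the body and high numbers the rear. Meis and Pbx proteins belong to a homeodomain class with an extended loop and bind DNA together with Hox proteins. In blood formation, Hoxb4 and the middle genes of the Hoxa cluster are used by progenitor cells and are lowered as cells mature. Dlx genes act in the forebrain, the face and the limbs, sine oculis genes in eye, muscle and kidney, Lhx, Irx, Nkx and Otx genes mostly in the nervous system and inner organs, and Pax genes in many organ primordia.

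Intensity is given as deposited, on a linear scale. It depends on the probes as well as on the RNA, so a gene is compared between the arrays and not with another gene. A gene was called measured when its probe set exceeded 44.3 on at least 1 array, the median of all values of both arrays and the floor used for log2 differences. It was called bright at an intensity of 200 or more on at least 1 array. Where 1 value lies below the floor, only the smallest possible fold is known, and it is given as "at least". The error available is the spread between probe sets of the same gene, whose pooled SD of log2 differences was 0.60 in 5478 genes. This SD does not cover the spread between cultures.

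Several facts of the whole arrays stand beside every difference. The median intensity was 50.7 on the co-culture array and 36.9 on the serum array, and 52.7% of probe sets lay above the floor on the co-culture array and 47.3% on the serum array. Probe sets at the 3′ and 5′ ends of a transcript report on RNA length. Their ratio was 2.05 in co-culture and 3.56 in serum for beta-actin, and 1.88 in co-culture and 2.54 in serum for Gapdh. For the transferrin receptor it was 5.03 in co-culture and 13.2 in serum. The part of these ratios in the results was not tested. Of 15 pan-leukocyte markers 3 were measured, of 13 B cell markers 5 and of 11 T cell markers 3, and none of these markers was bright. Among all genes 63.4% were measured and 46.5% bright. Measured markers lower in co-culture were Cd53 (64.3 in co-culture and 139 in serum), Ebf1 (85.3 in co-culture and 161 in serum) and Cd72. Measured markers higher in co-culture were Cd247 (130 in co-culture and 69.9 in serum), Coro1a, Lcp1, Lat, Cr2, Igll1, Spib and Cd2. The last 4 exceeded the floor in co-culture alone. Only Cd53 was past 2-fold by the probe set used. Another probe set of Coro1a, with 106 in co-culture and 52.7 in serum, was just past 2-fold on the higher side. The summed intensity of the pan-leukocyte list was 416 in co-culture and 445 in serum, that of the B cell list 481 in co-culture and 429 in serum, and that of the T cell list 384 in co-culture and 262 in serum. Their part in the results was not tested. The CD45 gene Ptprc had 3.14 in co-culture and 21.5 in serum, Cd79a had 30.9 in co-culture and 34.7 in serum, and Cd3e had 7.65 in co-culture and 9.50 in serum. None of Ptprc, Cd79a and Cd3e thus exceeded the floor, and the samples are called by their labels only. Of 16 endothelial markers 3 were measured. Egfl7, the only bright one, had 532 in co-culture and 473 in serum, and Eng had 58.5 in co-culture and 36.5 in serum. Flt1 went the other way, with 26.4 in co-culture and 93.3 in serum. The summed intensity of all 16 was 920 in co-culture and 814 in serum, while Pecam1 (18.4 in co-culture and 21.3 in serum), Cdh5 (44.1 in co-culture and 19.6 in serum) and Kdr (38.4 in co-culture and 19.5 in serum) were below the floor on both arrays.

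The promoters of 3 genes are shown because the results turn on them. Dlx2 is the only member that stayed past 2-fold in all 8 alternative settings, and Hoxa10 and Hoxa11 are adjacent genes of the Hoxa cluster, both past 2-fold on the higher side in co-culture. Each line holds the 250 bases before a gene start in RefSeq (GRCm38.p6), read 5′ to 3′ on the gene's own strand, which is the minus strand for all of them. Capitals mark, on either strand, the CCAAT box, the letters TATAAA of a TATA box, and GGGCGG, the GC box bound by Sp factors. The regions are chr2:71546755-71547004 for Dlx2, chr6:52234940-52235189 and chr6:52240855-52241104 for the 2 starts of Hoxa10, and chr6:52245811-52246060 for Hoxa11.
Dlx2: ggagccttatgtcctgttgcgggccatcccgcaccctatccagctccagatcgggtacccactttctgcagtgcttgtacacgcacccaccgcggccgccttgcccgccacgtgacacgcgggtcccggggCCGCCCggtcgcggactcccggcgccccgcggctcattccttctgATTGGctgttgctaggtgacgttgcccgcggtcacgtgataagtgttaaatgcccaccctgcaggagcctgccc
Hoxa10, start 1: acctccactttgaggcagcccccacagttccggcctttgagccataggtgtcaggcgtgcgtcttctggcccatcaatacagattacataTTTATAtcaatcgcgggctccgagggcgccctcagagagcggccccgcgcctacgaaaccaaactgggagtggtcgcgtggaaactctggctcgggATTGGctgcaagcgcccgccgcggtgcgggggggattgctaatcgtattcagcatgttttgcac
Hoxa10, start 2: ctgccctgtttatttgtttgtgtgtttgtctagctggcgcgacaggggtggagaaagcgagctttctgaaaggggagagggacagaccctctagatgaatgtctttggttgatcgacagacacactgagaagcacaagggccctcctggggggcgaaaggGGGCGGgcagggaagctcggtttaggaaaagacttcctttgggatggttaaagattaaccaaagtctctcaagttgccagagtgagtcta
Hoxa11: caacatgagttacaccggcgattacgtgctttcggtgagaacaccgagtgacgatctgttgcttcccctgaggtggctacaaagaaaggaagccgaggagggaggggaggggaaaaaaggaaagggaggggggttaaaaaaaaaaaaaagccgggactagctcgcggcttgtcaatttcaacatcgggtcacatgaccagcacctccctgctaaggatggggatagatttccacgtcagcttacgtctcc
Dlx2 and the first start of Hoxa10 each hold 1 match to CCAAT, Dlx2 and the second start of Hoxa10 each 1 to GGGCGG, and the first start of Hoxa10 1 to TATAAA. The Hoxa11 window holds none of these. The homeodomain core TAATTA, the Pbx and Hox composite TGATNNAT and the Meis and Tgif motif TGACAG have no match in these 4 windows on either strand, and none of the marked matches overlaps another. Over all 32851 windows of this length, 33.8% hold CCAAT, 32.7% GGGCGG, 12.4% TATAAA, 4.84% TAATTA, 7.68% TGATNNAT and 15.9% TGACAG.

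Promoters of the homeobox genes hold many CpG pairs whether or not the gene was measured. Of the 85 coding members 57 had a RefSeq promoter window, with 68 windows in all. Their median was 13 CpG pairs per window, against 6 over all windows. It was 15 for the 11 bright genes with a window, 13 for the 22 genes between the floor and 200, and 14 for the 24 genes below the floor. The windows shown hold 24 CpG pairs in Dlx2, 20 and 7 in Hoxa10, and 13 in Hoxa11.

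Most homeobox genes were dim or below the floor on both arrays. Of the 96 members 52 were measured (54.2%), against 63.4% of all genes, and 20 were bright (20.8%), against 46.5% of all genes. Above the floor on both arrays were 30 members, on the co-culture array alone 14 and on the serum array alone 8. Over all genes the corresponding numbers were 9900, 1065 and 577. Whether a gene counts as measured depends on its probes as well as on the RNA. All 6 Dlx genes, all 3 Meis genes and all 3 Pbx genes were measured, but only 2 of 7 Pax genes, 1 of 7 Hoxc genes and 2 of 6 Irx genes.

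**Figure D1:**
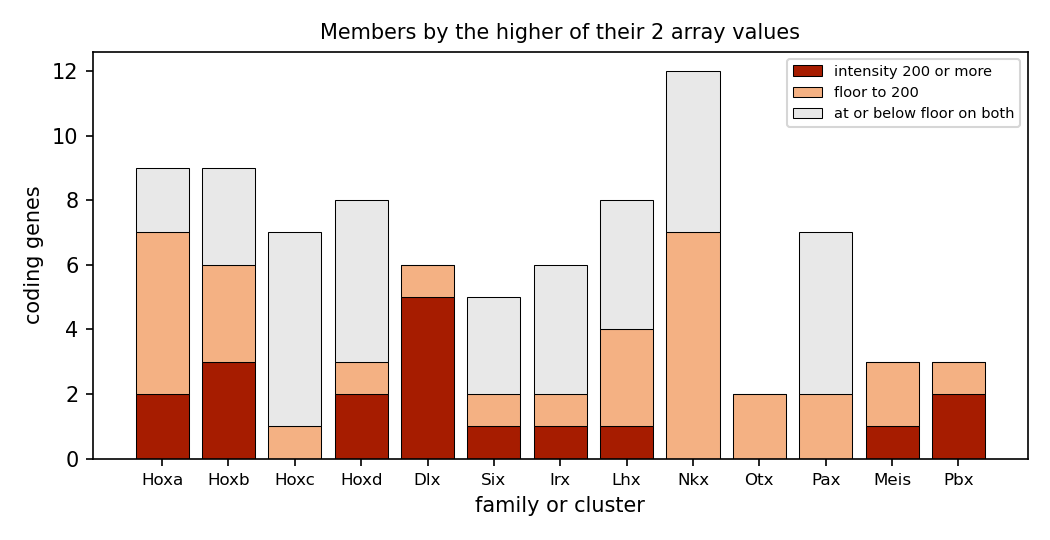
Number of coding homeobox genes (vertical axis) in each family or Hox cluster (horizontal axis), split by the higher of the 2 array values: 200 or more, floor to 200, or at or below the floor on both arrays. Dlx has 5 of 6 genes at 200 or more, while Hoxc, Nkx, Otx and Pax have none.

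Of the Hox genes, 17 of 33 were measured and 7 were bright: Hoxa10, Hoxa11, Hoxb4, Hoxb9, Hoxb13, Hoxd8 and Hoxd13. The Hoxa cluster was measured in a run of neighbours from Hoxa3 to Hoxa11 (7 genes, with Hoxa6 not analysed here), while Hoxa2 and Hoxa13 on either side of that run were below the floor. Second probe sets of Hoxa4 (7.70 in co-culture and 13.5 in serum), Hoxa5 (26.7 in co-culture and 16.4 in serum) and Hoxa9 (30.7 in co-culture and 22.9 in serum) were below the floor. Without shared-sequence probe sets Hoxa5 was not measured, which breaks the run. With the floor at percentile 75 only 2 Hoxa genes were measured. In the Hoxb cluster 6 of 9 genes were measured and Hoxb2, Hoxb6 and Hoxb7 were not. In the Hoxd cluster 3 of 8 were measured, namely Hoxd8, Hoxd12 and Hoxd13. By paralogue number, 5 of 14 genes numbered 9 to 13 were bright, 2 of 12 numbered 4 to 8 and 0 of 7 numbered 1 to 3. Of all genes 46.5% were bright, and being bright depends on the probes as well as on the RNA.

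**Figure D2:**
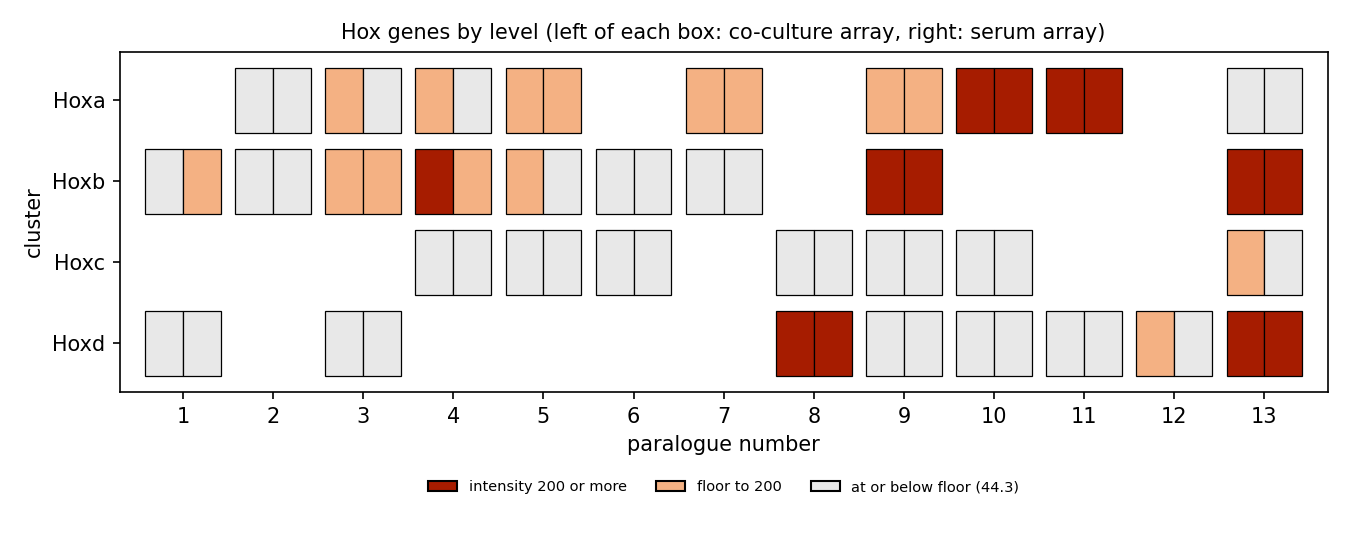
Level class of each of the 33 Hox genes analysed by cluster (rows) and paralogue number (columns); the left part of a box is the co-culture array and the right part the serum array. Bright boxes lie at Hoxa10, Hoxa11, Hoxb9, Hoxb13, Hoxd8 and Hoxd13 on both arrays, at Hoxb4 on the co-culture array alone, and at no Hoxc gene.

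Several Hox genes were higher in co-culture. Of the 17 measured, 5 passed 2-fold on the higher side and 1 on the lower side, where 4.6% of all measured genes were higher and 10.1% lower. Among the 7 bright Hox genes 4 were at least 2-fold higher and 0 lower, where 3.84% of all bright genes were higher and 10.6% lower. The higher count of the bright genes was 2 with spike scaling (and 1 lower), 2 with the mean over probe sets, and 2 of 6 with the floor at percentile 75. The log2 difference was above 0 in 14 of the 17, but 5 of these (Hoxa3, Hoxa4, Hoxb5, Hoxc13 and Hoxd12) and Hoxb1 on the other side exceeded the floor on 1 array only, so that the filter fixed their sign. Of the 11 Hox genes above the floor on both arrays 9 had a log2 difference above 0, with a median of 0.82, where 42.8% of all 9900 such genes did, with a median of -0.10. Over the 17 measured Hox genes the median was 0.55, which became 0.32 with quantile normalization (13 of 20 measured Hox genes above 0), 0.42 with scaling to the hybridisation spikes and 0.26 with the mean over probe sets, where 3 were at least 2-fold higher. With that spike scaling 3 measured Hox genes reached 2-fold on the higher side and 2 on the lower side, Hoxb1 and Hoxb13.

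Within the Hoxa cluster, the bright pair of neighbours was higher together. Hoxa10, a factor of limb, uterus and blood progenitors, had an intensity of 1266 in co-culture, against 578 in serum, 2.19-fold higher. Hoxa11, which acts in forelimb, kidney and uterus, had 977 in co-culture and 472 in serum, 2.07-fold higher. The second probe set of Hoxa10 went the other way, with 24.4 in co-culture and 67.7 in serum (a log2 difference of -0.61). With spike scaling both genes fell short of 2-fold, at 0.97 for Hoxa10 and 0.89 for Hoxa11 on the log2 scale.

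The other 5 measured Hoxa genes stayed below 200. Hoxa7, a mid-body patterning gene, had 168 in co-culture and 60.3 in serum, 2.78-fold higher. Hoxa9, a driver of myeloid leukaemia when overexpressed, had 83.7 in co-culture and 47.6 in serum (0.82 on the log2 scale). Hoxa4 was above the floor in co-culture alone, with 63.3 against 10.3 in serum, and Hoxa5, a lung and skeletal patterning gene, had 52.9 in co-culture and 61.4 in serum. Hoxa3, needed for thymus and parathyroid, had 69.8 in co-culture and 44.0 in serum by its brightest probe set, but 26.8 in co-culture and 78.1 in serum by another. Its direction is thus set by the choice of probe set. The opposite-strand RNA Hoxa11os, next to Hoxa11, had 292 in co-culture and 255 in serum (0.19 on the log2 scale, against 1.05 for Hoxa11).

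In the Hoxb cluster the genes differed in both directions. Hoxb9, of rib and mammary development, had 755 in co-culture and 272 in serum, 2.78-fold higher. Hoxb4, which expands blood stem cells when overexpressed, had 330 in co-culture and 147 in serum, 2.25-fold higher. Hoxb13, a prostate and tail gene at the far end of the cluster, had 205 in co-culture and 393 in serum, a log2 difference of -0.94. Hoxb1, a hindbrain gene, was above the floor in serum alone, with 2.51 in co-culture and 93.3 in serum, at least 2.11-fold lower. The end genes Hoxb13 and Hoxb1 were the 2 measured Hoxb genes with lower values in co-culture. Hoxb3 had 90.8 in co-culture and 68.6 in serum, and Hoxb5 had 59.4 in co-culture and 1.92 in serum.

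The bright Hoxd genes differed by less than 2-fold between the arrays. Hoxd13, the digit gene at the rear end of its cluster, had 2943 in co-culture and 2226 in serum, a log2 difference of 0.40. Its second probe set was below the floor on both arrays, at 3.04 in co-culture and 11.8 in serum, so the bright value rests on 1 probe set. Hoxd8 had 555 in co-culture and 379 in serum (0.55), and its second probe set gave 0.74. Hoxd12 had 51.5 in co-culture and 38.1 in serum. In the Hoxc cluster, Hoxc13, a hair and nail gene, was the only one measured, with 85.4 in co-culture and 11.7 in serum, at least 1.93-fold higher. The other 6 Hoxc genes reached at most 43.1.

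**Figure D3:**
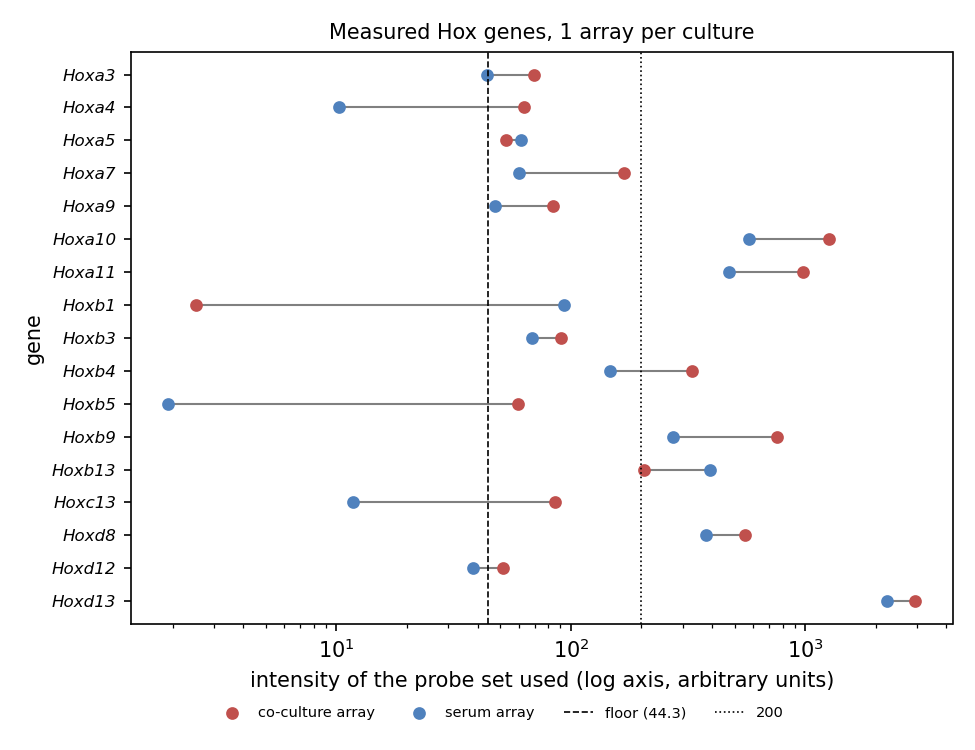
Intensity on a log axis of the 17 measured Hox genes, with 1 point for the co-culture array and 1 for the serum array, the floor of 44.3 and an intensity of 200 as lines. Of the 11 genes above the floor on both arrays, 9 have the higher value in co-culture, and Hoxa5 and Hoxb13 in serum.

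The Dlx genes lie in neighbouring pairs, and both genes of each pair were measured. In the pair of Dlx1 and Dlx2, which specify forebrain inhibitory neurons, Dlx2 had 5744 in co-culture and 1885 in serum, 3.05-fold higher, the largest log2 difference of any member at this floor (1.61). Dlx1 had 221 in co-culture and 133 in serum (0.73). In the pair of Dlx3 and Dlx4, Dlx3, a skin and placenta factor, had 1072 in co-culture and 611 in serum (0.81). Dlx4 had 620 in co-culture and 765 in serum (-0.30), but its second probe set had 299.6 in co-culture and 209 in serum (0.52). In the pair of Dlx5 and Dlx6, of jaw, bone and limb, Dlx5 had 356 in co-culture and 265 in serum (0.43), and Dlx6 had 77.5 in co-culture and 41.5 in serum, at least 1.75-fold higher. Of the 5 Dlx genes above the floor on both arrays 4 had a log2 difference above 0. Dlx6 exceeded the floor in co-culture alone, so that the filter fixed its sign. The opposite-strand RNAs Dlx6os1 (190.01 in co-culture and 259 in serum, -0.45) and Dlx4os (137 in co-culture and 149 in serum, -0.13) had lower values in co-culture.

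The 3 Pbx and 3 Meis genes, partners of the Hox proteins, were measured and differed in both directions. Only 2 of the Pbx genes and 1 of the Meis genes were above the floor on both arrays. Pbx3 had 1855 in co-culture and 4430 in serum, 2.39-fold lower, and its second probe set had 394 in co-culture and 543 in serum, a log2 difference of -0.46. Pbx2 had 1170 in co-culture and 1037 in serum (0.17), with its 3 probe sets between 0.01 and 0.29. Pbx4 was above the floor in co-culture alone, with 109 against 33.1 in serum, at least 2.47-fold higher. Meis2, a limb and forebrain factor, had 551 in co-culture and 835 in serum (-0.60), with its 4 probe sets between -1.60 and 1.14. Meis3 had 30.02 in co-culture and 95.2 in serum, at least 2.15-fold lower. Meis1, a partner of Hoxa9 in blood progenitors and leukaemia, had 66.4 in co-culture and 24.2 in serum, but its other measured probe set gave -0.08.

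Of the Irx, Lhx and sine oculis families 1 gene each was bright, and none of these 3 was past 2-fold. Six4, a muscle and sensory organ factor, had 855 in co-culture and 767 in serum (0.16), with its 3 measured probe sets between 0.16 and 1.02. Irx5, of heart and retina, had 337 in co-culture and 222 in serum (0.60), while its neighbours Irx3 (50.2 in co-culture and 40.3 in serum) and Irx6 (15.5 in co-culture and 3.71 in serum) were dim or below the floor. Lhx1, a head and kidney organiser gene, had 176 in co-culture and 203 in serum (-0.20), and its second probe set gave 0.38. Lhx8, of forebrain cholinergic neurons and oocytes, had 64.7 in co-culture and 163 in serum, 2.52-fold lower. Lhx6 (68.4 in co-culture and 75.6 in serum), Lhx2 (45.1 in co-culture and 35.2 in serum) and Six5 (45.04 in co-culture and 57.5 in serum) stayed below 200 on both arrays. Six2, Six3 and Six6 and the other Lhx and Irx genes were below the floor.

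No Nkx, Otx or Pax gene was bright. Of 12 Nkx genes 7 were measured, with log2 differences at this floor from -0.86 (Nkx2-3) to 0.83 (Nkx6-1), both of them bounds. Another measured probe set of Nkx2-3 gave -0.08. Nkx6-2, an oligodendrocyte and neuron factor, had the same class on both arrays (152 in co-culture and 170 in serum). Nkx2-1, Nkx2-3 and Nkx2-9 were above the floor in serum alone, and Nkx2-6 and Nkx6-1 in co-culture alone. Otx1 and Otx2, head and forebrain genes, were above the floor in serum alone (13.2 and 32.0 in co-culture, 44.4 and 63.6 in serum). Pax1 was above the floor in co-culture alone (62.3 in co-culture and 20.3 in serum) and Pax3 in serum alone (5.36 in co-culture and 46.9 in serum). Pax4, Pax6, Pax7, Pax8 and Pax9 reached at most 36.3. The 4 measured noncoding members lay within 2-fold, including Lhx1os (45.04 in co-culture and 34.0 in serum), and the other 7 reached at most 29.7.

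**Figure D4:**
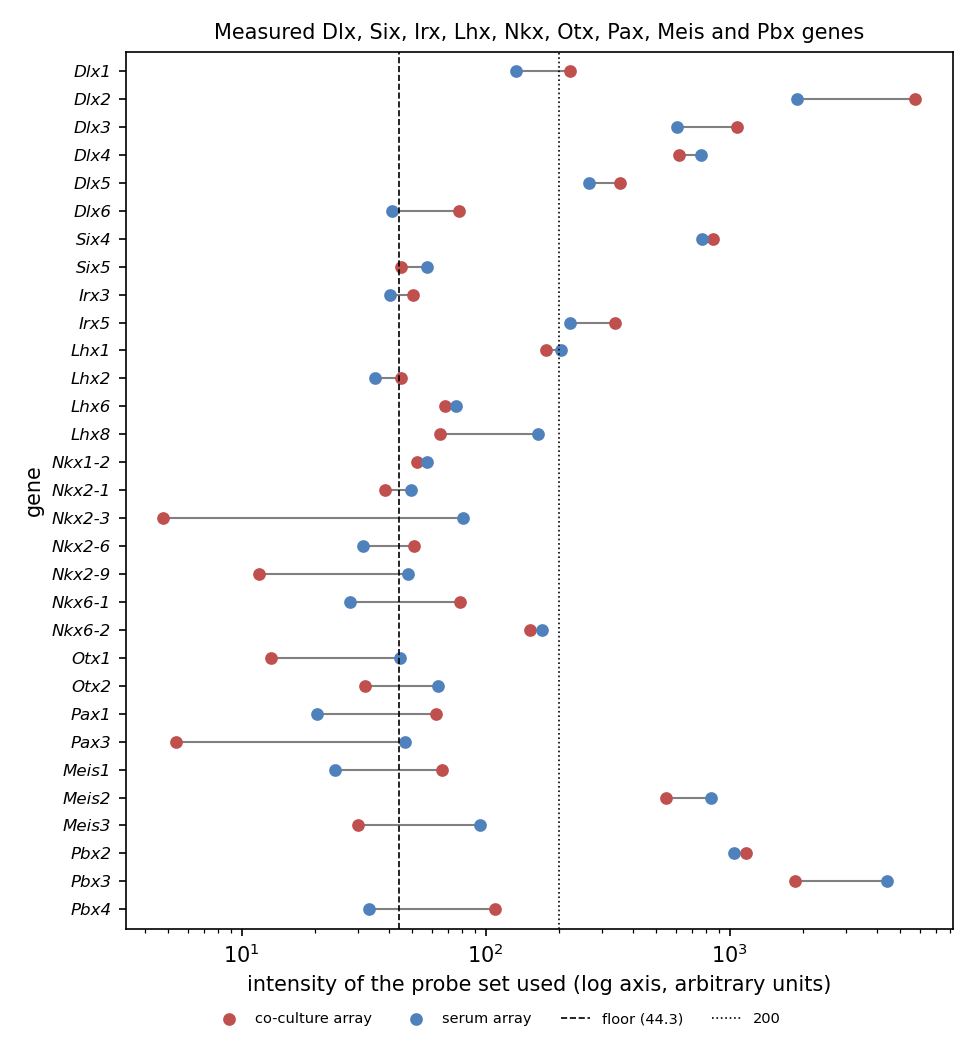
Intensity on a log axis of the 31 measured coding members outside the Hox clusters, with 1 point for the co-culture array and 1 for the serum array, the floor of 44.3 and 200 as lines. Dlx2 is 3.05-fold higher and Pbx3 2.39-fold lower in co-culture, and the Nkx, Otx and Pax genes all lie below 200.

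Over all 52 measured members 7 were higher in co-culture by 2-fold or more, 4 lower and 41 within 2-fold, where 4.6% of all measured genes were higher and 10.1% lower, so that the share of lower members lay near that of all genes. The 11 genes are Dlx2, Hoxa7, Hoxa10, Hoxa11, Hoxb4, Hoxb9 and Pbx4 on the higher side and Hoxb1, Lhx8, Meis3 and Pbx3 on the lower side. The median log2 difference was 0.19, against -0.06 over all measured genes (0.18 and -0.10 over genes above the floor on both arrays), and that of the 31 measured coding genes outside the Hox clusters was -0.0038. Of the 11 members past 2-fold, 6 had a log2 difference beyond 1.20, which is 2 times the pooled SD between probe sets: Dlx2, Hoxa7, Hoxb9, Lhx8, Pbx3 and Pbx4. The SD was 0.66 for genes with a mean intensity below 200 and 0.59 for brighter genes, and by 2 times the SD of its own class Pbx4 fell short while Hoxb4 passed. Only Hoxa10 and Pbx3 of the 11 had another measured probe set. Among all 11 members with more than 1 measured probe set, all probe sets lay on the same side of 0 in 5.

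**Figure D5:**
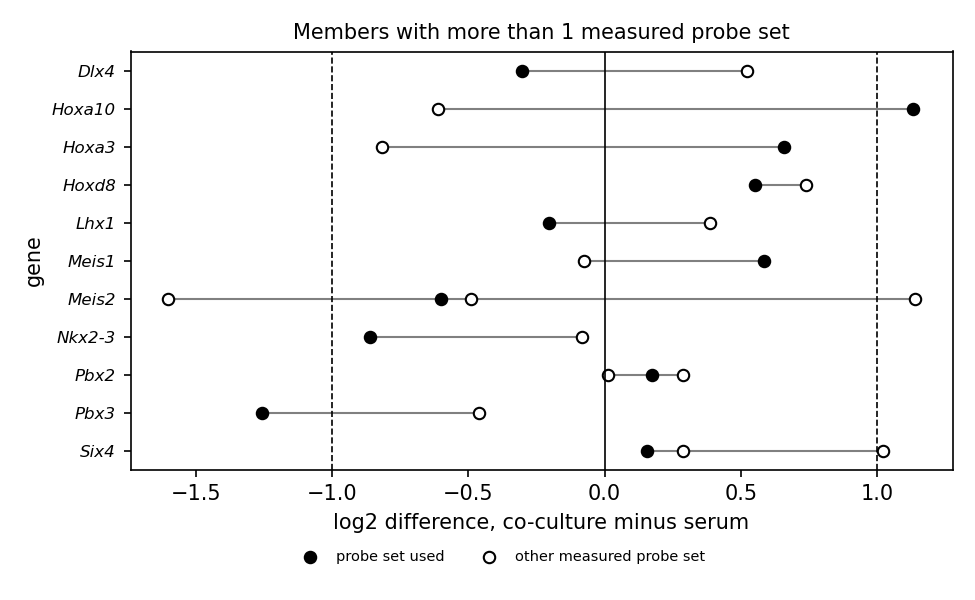
Log2 difference (co-culture minus serum) of every measured probe set of the 11 members with more than 1, with filled points for the probe set used and open points for the others; dashed lines mark 2-fold. Probe sets lie on both sides of 0 for Dlx4, Hoxa10, Hoxa3, Lhx1, Meis1 and Meis2.

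Other homeobox genes, from a list of 49 with a probe set, included 15 measured genes, where 63.4% of all genes were measured. Of the 15, 1 was at least 2-fold higher and 2 lower, with a median log2 difference of -0.00065 (all measured genes 4.6%, 10.1% and -0.06). Msx1, a BMP-induced factor of limb and face, had 854 in co-culture and 25.4 in serum, at least 19.3-fold higher, and its other probe set had 89.7 in co-culture and 26.5 in serum. Hlx, of gut and blood, had 21.3 in co-culture and 108 in serum, at least 2.44-fold lower, and Meox1, a somite gene, had 60.5 in co-culture and 141 in serum, 2.32-fold lower. En2 (837 in co-culture and 948 in serum), Pitx1 (335.3 in co-culture and 335.5 in serum), Isl1 (272 in co-culture and 184 in serum) and Hhex (635 in co-culture and 449 in serum) were also bright but lay within 2-fold, and were named after their values were seen. The second probe set of Pitx1 had 97.3 in co-culture and 37.4 in serum, past 2-fold (1.13).

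Cofactors of homeodomain proteins were mostly on: of 24 with a probe set 21 were measured, where 63.4% of all genes were. Of the 21, 2 were at least 2-fold higher and 2 lower, and the median log2 difference was 0.07 (all measured genes 4.6% higher, 10.1% lower and -0.06). Lmo2, which bridges blood transcription factors through Ldb1, had 436 in co-culture and 86.8 in serum, 5.03-fold higher. Pknox1, a Meis-related partner of Pbx, had 589 in co-culture and 164 in serum, 3.58-fold higher, and its other probe sets gave log2 differences of 1.07 and 0.49. Pknox2 had 45.8 in co-culture and 154 in serum, 3.37-fold lower. Eya1, a co-activator of sine oculis proteins such as Six4, named after its value was seen, had 215 in co-culture and 482 in serum, 2.25-fold lower.

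Regulators that keep Hox clusters silent or active were on. Of 23 Polycomb and trithorax genes 23 were measured and 19 bright, where 63.4% of all genes were measured and 46.5% bright. Of the 23, 22 lay within 2-fold, as did 85.3% of all measured genes. Their median log2 difference was 0.07, against -0.06. The exception was Phc1, a subunit of Polycomb repressive complex 1, with 220 in co-culture and 843 in serum, 3.84-fold lower. Ezh2, the histone H3 lysine methyltransferase of the second Polycomb complex, had 4701 in co-culture and 5334 in serum, and Kmt2a, the trithorax enzyme that sustains Hox expression, had 781 in co-culture and 523 in serum (0.58 on the log2 scale), while its second probe set had 742 in co-culture and 269 in serum and was past 2-fold (1.46). Ezh2 and Kmt2a were named after their values were seen.

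Genes of retinoic acid, a signal that activates Hox clusters from the front end, differed in both directions. Of 9 measured genes of this list 2 were at least 2-fold higher and 4 lower, with a median log2 difference of -0.95, where 4.6% of all measured genes were higher and 10.1% lower, with a median of -0.06. Cdx1, Cdx2 and Cdx4, activators of Hox genes, were below the floor on both arrays. Cyp26b1, which degrades retinoic acid, had 198 in co-culture and 39.2 in serum, at least 4.47-fold higher. Dhrs3, which returns retinal to retinol, had 39.4 in co-culture and 166 in serum, at least 3.74-fold lower, and the receptor Rxrb had 798 in co-culture and 2510 in serum, 3.15-fold lower. The other 3, named after their values were seen, were Aldh1a2, which makes retinoic acid (126 in co-culture and 369 in serum, 2.92-fold lower), the receptor Rxra (804 in co-culture and 1816 in serum, 2.26-fold lower) and the receptor Rarg (163 in co-culture and 64.2 in serum, 2.53-fold higher).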

How the data were processed

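Biotin-labelled cRNA was transcribed from cDNA primed on the poly(A) tails of column-purified total RNA, per the labels' protocols. The deposited table holds the authors' linear intensity per probe set. Array software, background correction and normalization were not given in the sources used here. With 2% trimmed from both tails, the arrays had the same mean (500.003), a pattern that scaling to a common mean would leave, though no label states it.

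Probe sets were named from the platform annotation and updated by gene number to RefSeq of GRCm38.p6. Of those with 1 symbol 34741 of 34945 matched, and all 153 of the members did. Control probe sets, 932 with several symbols (3 of them with a symbol of these families) and 9211 without a symbol were left out. A gene's value is that of its probe set with the highest mean intensity over both arrays, for members and background alike. Values below the floor of 44.3 were set to it before log2. The 27 bacterial controls reached at most 21.7.

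Genes named are all members past 2-fold, all bright members, all measured Hox members, and from each other list the up to 3 largest differences past 2-fold; other genes were named after their values were seen. Members and lists were chosen with earlier results of these data known. The steps were tested on simulated data with changes put only into genes far above the floor on both arrays. Calls near the floor were therefore not tested. Python 3.11.15, numpy 2.4.6, pandas 2.3.3 and matplotlib 3.10.9 were used. Alternatives were floors at percentiles 25 and 75, a pseudocount of 16, median subtraction, quantile normalization, scaling to 9 hybridisation spike probe sets, the mean over probe sets, and leaving out shared-sequence probe sets.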

Additional observations from a re-analysis of the deposited data

How the results depend on the processing

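The counts depend on the floor. With the floor at percentile 25, 84 members were measured, 17 passed 2-fold on the higher side in co-culture and 10 on the lower, and with the floor at percentile 75, 13 were measured, 3 higher and 1 lower, with a median log2 difference of 0.40. A pseudocount of 16 gave 13 higher and 8 lower of 52 measured. The mean over probe sets gave 4 higher and 3 lower, also of 52. The median of 0.19 became -0.0078 with quantile normalization and 0.076 with scaling to the spikes, which moved the median of all measured genes from -0.06 to -0.22. In these and the remaining alternatives, the other counts of members stayed within 1.5 times the reported ones and the other medians of members within 0.1. The median of all measured genes became 0.04 with the floor at percentile 25. Over all genes, 2053 were higher at percentile 25, 143 higher and 399 lower at percentile 75, 881 higher with the pseudocount, and 653 lower with the mean over probe sets, against 531 and 1162. At percentile 25, 12.7% of all measured genes were higher and 10.03% lower, and at percentile 75, 1.98% higher and 5.53% lower. With the pseudocount 7.63% were higher and 10.6% lower. With the mean over probe sets 3.57% were higher and 5.65% lower, against the reported 4.6% and 10.1%. Of the 11 members past 2-fold, Dlx2 alone stayed past 2-fold in all 8 alternatives. Hoxa7, Hoxb1, Hoxb4, Hoxb9, Lhx8, Meis3 and Pbx4 lost it at percentile 75, Hoxa10 and Hoxa11 with spike scaling, Hoxa10, Hoxb4, Pbx3 and Pbx4 with the mean over probe sets, and Pbx3 without shared-sequence probe sets. Of the 7 that lost it at percentile 75, all but Hoxb9 lie below the floor on both arrays. None of the 11 reversed its sign, and the cause of the shift with quantile normalization was not tested. No paired analysis was possible because each culture has 1 array. Where 1 value lies below the floor only a bound is known, as for 3 of the 11 folds.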

Other observations

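Of the 20 bright members 12 had more than 1 probe set, and in 5 of these another probe set was at or below the floor on both arrays. Hoxd13 had 2943 in co-culture and 2226 in serum by the probe set used, and 3.04 in co-culture and 11.8 in serum by the other. Dlx3 had 1072 in co-culture and 611 in serum by the probe set used, and 8.41 in co-culture and 2.93 in serum by the other. Hoxb4 (19.7 in co-culture and 7.96 in serum), Six4 (23.9 in co-culture and 5.20 in serum) and Hoxa11os (1.56 in co-culture and 0.23 in serum) likewise had a probe set below the floor. Whether these genes count as on therefore depends on which probe set is read, and the reason for the disagreement was not tested.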
